A study of Mus musculus with 18 samples.

Results

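The genes described here are 10 parts of the mammalian circadian clock, Arntl, Clock, Per1, Per2, Per3, Cry1, Cry2, Nr1d1, Nr1d2 and Dbp, out of 18193 genes measured on 18 mouse arrays. They were chosen by name. Each gene was taken as the probe set (a group of short probes summarized as 1 value) whose platform annotation names that gene alone. Where a gene had several, the one with the highest mean over the 18 arrays was taken. The 10 genes had 23 probe sets, and 6 of the genes had more than 1.

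The samples came from mice of the hybrid strain B6C3F1/N, which were 5 to 6 weeks old when a study of inhaled cobalt metal particles began. Exposure was at 0 to 5 mg/m3 for 6 hours a day on 5 days a week, for up to 105 weeks. There were 6 arrays each of lung from vehicle control mice (control lung), of lung tumours that arose spontaneously (spontaneous tumours) and of lung tumours from cobalt-treated mice (cobalt tumours). Tumours were cut out of the lung around them and frozen before RNA was extracted. No label used here gives a sample's dose, sex, age at collection or hour of collection. Nor do the labels say that each array of a group stands for a mouse of its own, and p-values measure only the spread between arrays, which may in part be technical. The hour of collection is a limit of its own for these genes, whose RNA is known to rise and fall each day.

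The clock is a feedback loop of transcription that runs in nearly every cell, including those of the lung. ARNTL (also called BMAL1) and CLOCK bind DNA as a pair at the E-box and switch on the Per and Cry genes, whose proteins return to the nucleus and block the pair. The same pair switches on Nr1d1 and Nr1d2, which encode the REV-ERB repressors that shut down Arntl through a site called the RORE, and Dbp, an activator that binds the D-box. In tissues with a running clock, Arntl RNA is highest near the time of day when Nr1d1, Dbp and Per3 RNA are lowest.

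These DNA sites are short words, and 4 of the genes hold one of them within the 250 bases before to 50 bases after a transcription start listed by RefSeq (build GRCm38.p6). Promoters were listed for 9 of the 10 genes, all but Per2. The words searched on both strands were CACGTG for the E-box, TTATGTAA or TTACGTAA for the D-box, TAGGTCA or TGGGTCA for the RORE and TGACGTCA for the cyclic AMP response element, and none of them contains another. The stretches with a match are shown 5′ to 3′ on the gene's strand, with the matched word in capitals. They are the 250 bases before the start at chr4:151044666-151044915 for Per3 (minus strand), at chr11:69098699-69098948 for Per1 (plus strand) and at chr10:85185055-85185304 for Cry1 (minus strand). For Arntl they are 30 bases after the start at chr7:113207529-113207558 (plus strand).
Per3: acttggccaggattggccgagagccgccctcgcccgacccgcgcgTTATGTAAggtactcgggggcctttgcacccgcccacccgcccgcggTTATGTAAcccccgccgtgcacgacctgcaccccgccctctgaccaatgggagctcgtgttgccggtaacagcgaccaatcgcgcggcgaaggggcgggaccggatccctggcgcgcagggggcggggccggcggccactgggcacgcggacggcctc
Per1: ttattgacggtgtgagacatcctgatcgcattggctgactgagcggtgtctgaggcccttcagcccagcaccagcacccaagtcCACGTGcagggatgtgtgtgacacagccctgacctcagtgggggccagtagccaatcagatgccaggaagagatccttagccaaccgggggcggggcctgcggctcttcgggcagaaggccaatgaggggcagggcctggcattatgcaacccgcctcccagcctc
Cry1: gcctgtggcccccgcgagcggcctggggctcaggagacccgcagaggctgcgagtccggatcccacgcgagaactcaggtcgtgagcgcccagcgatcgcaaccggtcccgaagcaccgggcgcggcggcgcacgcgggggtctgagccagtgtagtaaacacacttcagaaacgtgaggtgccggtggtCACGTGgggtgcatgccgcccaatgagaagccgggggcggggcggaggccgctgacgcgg
Arntl: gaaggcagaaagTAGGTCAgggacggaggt
Per3 has a pair of D-boxes, which begin 205 and 158 bases before its start. Per1 and Cry1 have 1 E-box each, 166 and 60 bases before the start, and the second listed start of Arntl has a RORE word 31 bases after it. Over all 32851 listed promoters of that length, 7.15% hold the E-box word, 1.06% a D-box word and 6.45% a RORE word. Counted by gene, with a match in any promoter, the shares of 27025 genes were 8.09%, 1.23% and 7.35%. The cyclic AMP response element, found in 1.79% of promoters, was in none of the members' windows. A match is a description of letters and shows no binding.

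Several features of the arrays bear on every value below. Control lungs carried the defining RNAs of lung, with a log2 level of 14.91 ± 0.05 for the surfactant protein Sftpc and 14.53 ± 0.04 for the alveolar receptor Ager (SD, n = 6). Cobalt tumour 6 resembled control lung (mean r = 0.969 across genes) more than the other cobalt tumours (0.945). Spontaneous tumours 2 and 6 were the least like the rest of their group (mean r = 0.948 and 0.949, against 0.961 to 0.968). Their mean levels of alveolar type 2 markers were 11.85 and 11.74, against 13.1 to 13.31 in the other spontaneous tumours. They and cobalt tumour 6 were left out together in an alternative fit. High Xist RNA, which marks female cells, was found in 6 of 6 control lungs, 2 of 6 spontaneous tumours (4 and 6) and 4 of 6 cobalt tumours (2, 3, 5 and 6). Tumours with low Xist had Y-linked genes at a mean of 7.48 to 8.27, against 3.91 to 4.12 on high-Xist arrays. That is the pattern of male cells, and no control lung showed it. In those tumours a difference from control lung cannot be told apart from a difference of sex. Fits of high-Xist arrays alone keep only the 2 spontaneous and 4 cobalt tumours named. Control 6 is called a spontaneous tumour in its free-text field and a control in its other labels, and resembled the controls (mean r = 0.989) more than the spontaneous tumours (0.92). All 12 endothelial markers fell in each tumour group, and their mean level was 11.03 to 11.43 in control lungs, 7.78 to 9.16 in spontaneous tumours and 7.6 to 10.3 in cobalt tumours. All 8 measured ciliated cell markers and 6 of 8 alveolar type 1 markers also fell in each. Of 10 measured alveolar type 2 markers, 4 rose in spontaneous and 7 in cobalt tumours, and none fell. Of 9 measured macrophage markers, 6 rose in spontaneous tumours, and 3 rose and 1 fell in cobalt tumours. Over all genes 18.2% fell and 16.4% rose in spontaneous and 19.3% fell and 14.7% rose in cobalt tumours. In bulk samples fewer cells of a type and less RNA per cell cannot be told apart, and the part of this shift in cell makeup in the results on clock genes was not tested.

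Against control lung, 4 of the 10 clock genes fell and 1 rose in spontaneous tumours, and 3 fell and none rose in cobalt tumours. Clock fell in both kinds of tumour. Arntl, Per1 and Cry2 fell and Dbp rose in spontaneous tumours, and Per3 and Nr1d1 fell in cobalt tumours. These calls are at an adjusted p under 0.05 in limma (with Benjamini-Hochberg adjustment over all 18193 genes), which was passed by 34.6% of all genes in spontaneous tumours (18.2% lower and 16.4% higher) and 34% in cobalt tumours (19.3% lower and 14.7% higher). The count in cobalt tumours is thus close to that of genes in general, and neither count is read as particular to the clock. The median log2 change of the 10 genes was -0.57 in spontaneous and -0.32 in cobalt tumours, against -0.03 over all genes in each. With each array's Xist class (high or low) as a covariate no member was called in spontaneous tumours (4 had an unadjusted limma p under 0.05), and 3 were called in cobalt tumours. All 6 control lungs were of the high class, so the tumours alone inform that term. Both comparisons use the same 6 control lungs.

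**Figure D1:**
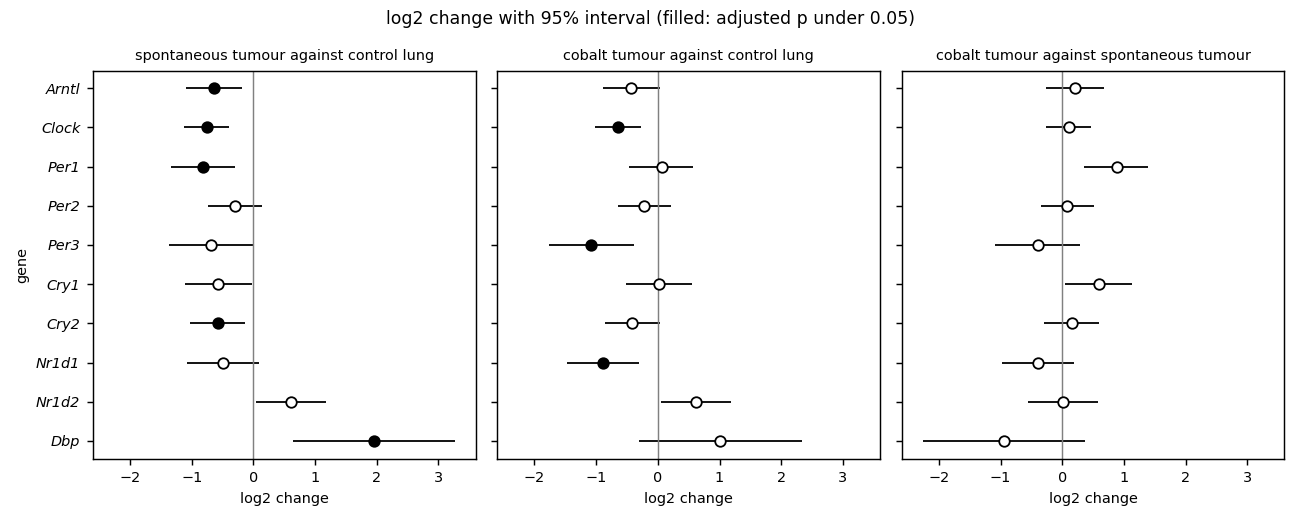
The log2 change of each clock gene (rows) in the 3 comparisons (panels), with its 95% interval from limma; filled points passed an adjusted p of 0.05. Clock is filled against control lung in both kinds of tumour, Dbp and Nr1d2 lie to the right of 0 there and most other points to the left, and no point is filled for cobalt against spontaneous tumours.

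Clock and Arntl encode the pair that drives the loop, and Clock fell in each tumour group. Clock lay at 9.21 to 9.74 in control lungs (median 9.6), 8.43 to 9.18 in spontaneous tumours (median 8.83) and 8.58 to 9.58 in cobalt tumours (median 8.8), all on the log2 RMA scale. No spontaneous tumour reached the lowest control, and of the cobalt tumours only number 6 lay within the control range. In spontaneous tumours Clock was 1.69-fold lower (log2 change -0.76 ± 0.17 SE, adjusted p = 0.00267, 6 of 6 tumours below the control mean). Groups without overlap were found for 21.1% of all genes in that comparison. In cobalt tumours it was 1.57-fold lower (-0.65 ± 0.17, adjusted p = 0.00756, 5 of 6 tumours below the control mean). The other 3 probe sets of Clock did not all move alike. The log2 changes of 1418660_at and 1435775_at were -0.72 and -0.66 in spontaneous and -0.66 and -0.84 in cobalt tumours, while those of 1439314_at were -0.27 and 0.1 and did not pass the test (adjusted p over all probe sets of 0.116 and 0.606). With the Xist class as a covariate Clock missed the threshold in spontaneous tumours (-0.47, adjusted p = 0.0716), as it did when only arrays with high Xist were used (-0.46, 0.131).

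Arntl lay at 8.44 to 9.14 in control lungs (median 8.91), 7.4 to 8.94 in spontaneous tumours (median 8.25) and 7.98 to 8.93 in cobalt tumours (median 8.47). Its groups overlapped, and the lowest array of all was spontaneous tumour 1. Arntl was 1.55-fold lower in spontaneous tumours (-0.64 ± 0.22, adjusted p = 0.0317, 5 of 6 tumours below the control mean) and differed by -0.43 ± 0.22 in cobalt tumours (adjusted p = 0.144). The call in spontaneous tumours was lost, at adjusted p of 0.0562 to 0.0722, when control 3, 4 or 6 or spontaneous tumour 1, 2 or 3 was left out. It was lost as well with Xist as a covariate (-0.44, adjusted p = 0.236), with the arrays of high Xist alone (-0.4, 0.238), without cobalt tumour 6 and spontaneous tumours 2 and 6 (-0.63, 0.0669) and in the exact permutation test (0.0636). It was also lost with the mean of both Arntl probe sets (-0.27, adjusted p = 0.129), since the dimmer one, 1457740_at, changed by 0.09 in spontaneous tumours and rose by 0.33 in cobalt tumours (adjusted p over all probe sets of 0.608 and 0.0474).

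**Figure D2:**
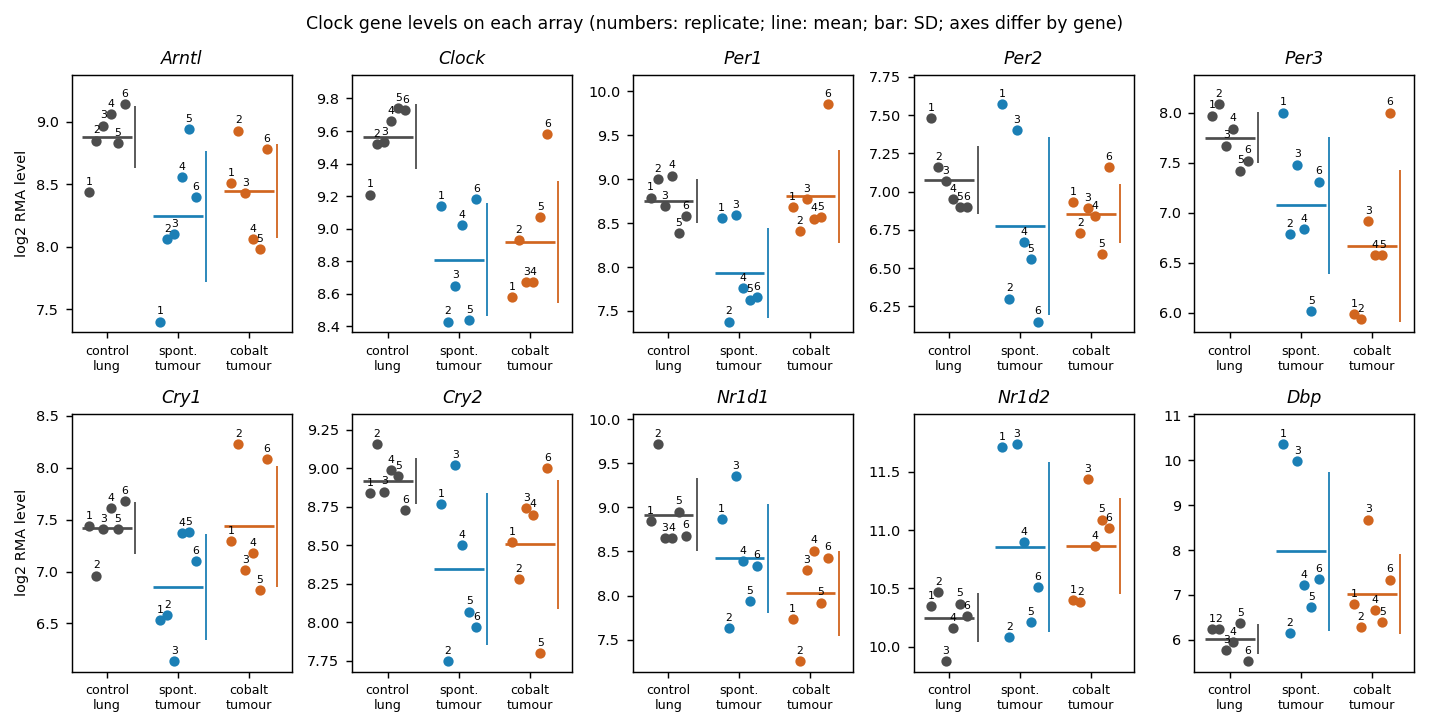
The log2 RMA level of each clock gene on each array (points, with the replicate number), by group; horizontal lines are group means and vertical bars the SD, and each panel has its own axis. Spontaneous tumours 1 and 3 are the highest of their group for Dbp, Nr1d2, Nr1d1, Per1, Per2, Per3 and Cry2, and cobalt tumour 6 stands above the other cobalt tumours for Per1, Per3 and Clock.

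Of the Period genes, whose proteins form the repressor with the cryptochromes, Per1 fell in spontaneous tumours and Per3 in cobalt tumours, while none passed the test between the tumour groups. Per1, the member that also answers quickly to glucocorticoids and cyclic AMP, lay at 8.39 to 9.04 in control lungs (median 8.74), 7.38 to 8.59 in spontaneous tumours (median 7.71) and 8.41 to 9.85 in cobalt tumours (median 8.62). Spontaneous tumours 2, 4, 5 and 6, at 7.38 to 7.76, were below every control and every cobalt tumour, and spontaneous tumours 1 and 3 were within the control range. Per1 was 1.76-fold lower in spontaneous tumours than in control lung (-0.82 ± 0.24, adjusted p = 0.015, 6 of 6 tumours below the control mean). In cobalt tumours it differed by 0.06 ± 0.24 (95% interval -0.46 to 0.57, adjusted p = 0.885), and by -0.15 without cobalt tumour 6, so no direction is given. With Xist as a covariate the change in spontaneous tumours was -0.83 and missed the threshold (adjusted p = 0.0585), while with the arrays of high Xist alone it was -1.04 (0.0332).

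Per3, whose promoter carries the pair of D-boxes shown above, lay at 7.42 to 8.08 in control lungs (median 7.76), 6.02 to 8 in spontaneous tumours (median 7.07) and 5.94 to 8 in cobalt tumours (median 6.58). Cobalt tumours 1 to 5, at 5.94 to 6.92, were all below the lowest control, and cobalt tumour 6 was at 8. Per3 was 2.12-fold lower in cobalt tumours (-1.08 ± 0.33, adjusted p = 0.0162, 5 of 6 tumours below the control mean), and the change was -1.35 without cobalt tumour 6. In the arrays with high Xist alone it was -0.89 (adjusted p = 0.0566). In spontaneous tumours the difference was -0.68 ± 0.33 (adjusted p = 0.121), which passed the threshold under 1 other setting, when spontaneous tumour 1 was left out (-0.87, 0.0475). Of the 5 other Per3 probe sets, 1441445_at and 1460662_at also fell in cobalt tumours, by 0.76 and 0.41 on the log2 scale, and the differences of the other 3 there, from -0.71 to -0.04, did not pass. In spontaneous tumours 1460662_at fell by 0.43 (limma adjusted p over all probe sets of 0.0188), and 1441445_at differed by -0.5 (0.0523).

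Per2 lay at 6.9 to 7.48 in control lungs (median 7.01), 6.15 to 7.57 in spontaneous tumours (median 6.61) and 6.59 to 7.16 in cobalt tumours (median 6.87), near the medians of the arrays (6.32 to 6.44), so the probe set is dim. The differences from control lung were -0.3 ± 0.21 (95% interval -0.74 to 0.14, adjusted p = 0.282) and -0.22 ± 0.21 (-0.65 to 0.22, 0.46). Spontaneous tumours 1 and 3 were at 7.57 and 7.4 and the other 4 at 6.15 to 6.67, below every control, so the group mean describes neither set of arrays. With the arrays of high Xist alone, the difference was -0.67 (limma adjusted p = 0.0296). That fit keeps 2 spontaneous tumours, numbers 4 and 6, both from the lower set. Cry2, a cryptochrome repressor, showed the same split, with spontaneous tumours 1 and 3 at 8.77 and 9.02, among the controls at 8.73 to 9.16, and the other 4 at 7.75 to 8.5. Cry2 was 1.49-fold lower in spontaneous tumours (-0.58 ± 0.21, adjusted p = 0.0428, 5 of 6 tumours below the control mean) and differed by -0.42 ± 0.21 in cobalt tumours (0.144). This was the weakest of the calls and was lost, at adjusted p of 0.0503 to 0.0981, in 10 of the 18 fits that left out 1 array: control 1, 2, 3, 4 or 5, spontaneous tumour 2, 4, 5 or 6, or cobalt tumour 1. It was also lost with array weights (-0.36, adjusted p = 0.0972), without cobalt tumour 6 and spontaneous tumours 2 and 6 (-0.33, 0.197), with Xist as a covariate (-0.68, 0.0676), with the arrays of high Xist alone (-0.69, 0.0789) and in the exact permutation test (0.0724). In cobalt tumours the difference passed with array weights (-0.46, 0.0351) and without those 3 arrays (-0.52, 0.0308).

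Cry1, the other cryptochrome, lay at 6.96 to 7.68 in control lungs (median 7.42), 6.14 to 7.38 in spontaneous tumours (median 6.84) and 6.82 to 8.23 in cobalt tumours (median 7.23). Here spontaneous tumours 1, 2 and 3 were lowest, at 6.14 to 6.58, and cobalt tumours 2 and 6 were above every control, at 8.23 and 8.08. The differences from control lung were -0.57 ± 0.26 in spontaneous tumours (adjusted p = 0.0959) and 0.02 ± 0.26 in cobalt tumours (95% interval -0.52 to 0.56, adjusted p = 0.969), and neither passed the test. With array weights the first did (-0.66, limma adjusted p = 0.0314).

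Of the REV-ERB repressor genes, Nr1d1 fell in cobalt tumours, and Nr1d2 did not pass the test in either kind of tumour. Nr1d1 lay at 8.65 to 9.72 in control lungs (median 8.76), 7.63 to 9.35 in spontaneous tumours (median 8.36) and 7.26 to 8.51 in cobalt tumours (median 8.1). All 6 cobalt tumours were below the lowest control, whereas the spontaneous tumours overlapped the controls. Groups without overlap were found for 18.9% of all genes in cobalt tumours. Nr1d1 was 1.85-fold lower in cobalt tumours (-0.89 ± 0.28, adjusted p = 0.0192) and differed by -0.5 ± 0.28 in spontaneous tumours (0.184). The call in cobalt tumours was lost narrowly without control 2, which held the highest level of all (-0.73, adjusted p = 0.051), and without cobalt tumour 2, the lowest (-0.74, 0.0505).

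Nr1d2 lay at 9.88 to 10.47 in control lungs (median 10.3), 10.08 to 11.74 in spontaneous tumours (median 10.71) and 10.38 to 11.44 in cobalt tumours (median 10.94). Spontaneous tumours 1 and 3 and cobalt tumour 3 were highest, at 11.71, 11.74 and 11.44. The differences from control lung, 0.61 ± 0.27 and 0.62 ± 0.27, were each 1.53-fold and did not pass the test (adjusted p = 0.0905 and 0.0892). Under other settings they passed it, in spontaneous tumours without spontaneous tumour 2 (0.77, adjusted p = 0.0324) or 5 (0.74, 0.046), with array weights (0.86, 0.00619) and without cobalt tumour 6 and spontaneous tumours 2 and 6 (0.89, 0.0202). In cobalt tumours they passed it with only the 12 arrays compared (0.62, 0.0146), with the arrays of high Xist alone (0.73, 0.0124) and in the exact permutation test (0.0349). A second Nr1d2 probe set, 1416959_at, differed by 0.48 and 0.24 (adjusted p over all probe sets of 0.13 and 0.477).

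Dbp, the D-box activator and the clock output with the widest daily swing known in many tissues, showed the largest difference of the 10 genes in spontaneous tumours. In control lungs it was dim, at 6.24, 6.24, 5.77, 5.95, 6.37 and 5.53 in replicates 1 to 6. In spontaneous tumours it was at 10.37, 6.15, 9.99, 7.22, 6.72 and 7.36, and in cobalt tumours at 6.8, 6.29, 8.68, 6.66, 6.4 and 7.34. Spontaneous tumours 1 and 3 and cobalt tumour 3 stood well above the rest, and 10 of the 12 tumours were above every control. Dbp was 3.87-fold higher in spontaneous tumours (1.95 ± 0.62, adjusted p = 0.0217) and differed by 1.01 ± 0.62 in cobalt tumours (95% interval -0.3 to 2.33, adjusted p = 0.235), with all 6 tumours of each group above the control mean. The call in spontaneous tumours was lost without spontaneous tumour 3 (1.55, adjusted p = 0.0538), with the mean of both probe sets (1.33, 0.0669), with the arrays of high Xist alone (1.27, 0.088) and with Xist as a covariate (1.76, 0.111). In cobalt tumours the exact permutation test (two-sided, adjusted over all genes) gave 0.0183, the fit of the 12 arrays alone 0.0379 and that of the arrays of high Xist alone 0.0477.

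The Dbp levels above are those of probe set 1438211_s_at. The other Dbp probe set, 1418174_at, gave its highest tumour levels on the same 3 arrays. It was at 8.86 and 8.8 in spontaneous tumours 1 and 3 and at 7.38 in cobalt tumour 3. It was at 5.93 to 6.47 in the other tumours and 5.98 to 7.4 in control lungs, so that spontaneous tumours 1 and 3 alone were above every control. Its log2 differences were 0.71 and -0.12 (adjusted p over all probe sets of 0.276 and 0.874). The high Dbp of spontaneous tumours 1 and 3 was thus seen with both probe sets, and the smaller excess in most other tumours with 1438211_s_at alone. Which probe set reads Dbp more closely was not tested.

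**Figure D3:**
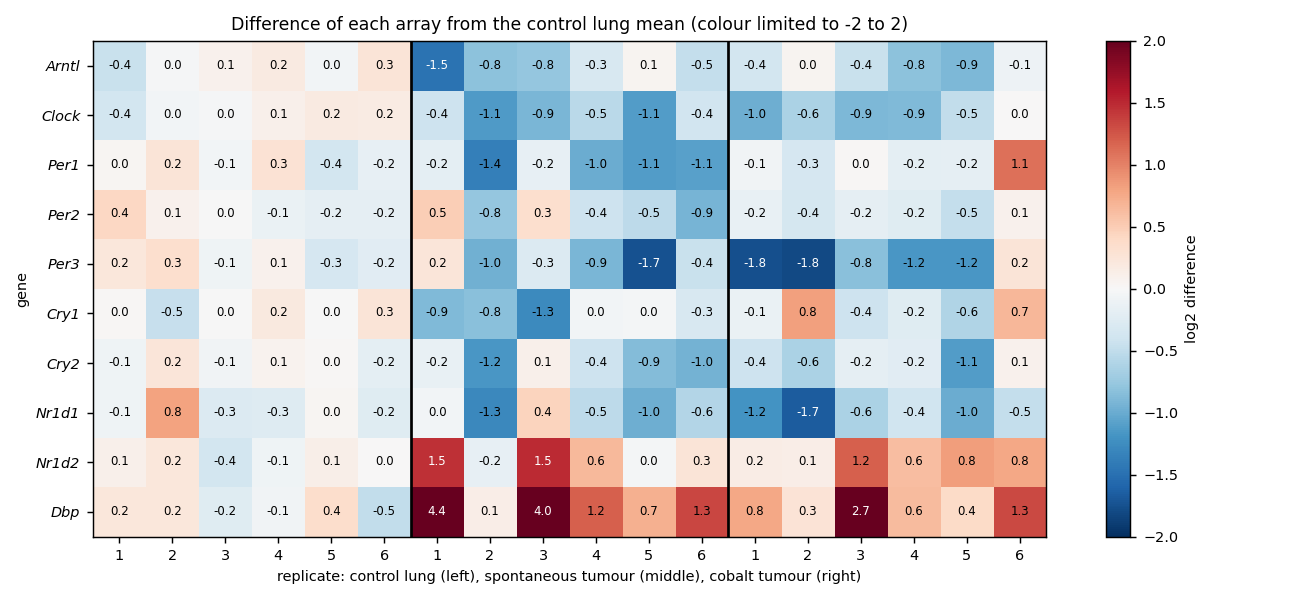
The difference of each array (columns) from the control lung mean for each clock gene (rows), in log2 units, red above and blue below, with colour limited to -2 to 2 and the value in each cell. With cobalt tumour 3, spontaneous tumours 1 and 3 have the darkest red for Dbp and Nr1d2, and they are blue for Arntl and Cry1, while spontaneous tumours 2, 4, 5 and 6 are blue for Per1, Per2, Per3, Cry2 and Nr1d1.

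Read across genes, the tumours of 1 group were not alike. In spontaneous tumours 1 and 3 Arntl, Clock and Cry1 were below every control, Nr1d2 and Dbp above every control, and Per1, Per3, Cry2 and Nr1d1 within the control range. In spontaneous tumours 2, 4, 5 and 6 between 6 and 8 of the 10 genes were below every control, among them Clock, Per1, Per2, Per3, Cry2 and Nr1d1 in each of these 4. Among cobalt tumours, 4 to 7 of the genes were below every control in numbers 1 to 5, and 1 gene, Nr1d1, was below every control in number 6. Over all genes, the share below every control was 29.5% to 35.7% per tumour and the share above every control 21.2% to 30.3%. The arrays set apart here were picked out after their values were seen, so no test between them is given.

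In each group the median SD of the 10 clock genes between arrays was above that of all genes. The genes compared were not matched for brightness. By mean level the 10 were brighter than 43.5% (Per2) to 93.5% (Nr1d2) of genes. The part of brightness in the difference of SD was not tested. The median SD of the 10 genes was 0.25 in control lungs, 0.55 in spontaneous tumours and 0.45 in cobalt tumours, beside 0.16, 0.22 and 0.22 over all genes. Dbp was the most variable of the 10 in tumours, with an SD of 1.77 in spontaneous tumours, more than that of 99.2% of genes, and of 0.89 in cobalt tumours, more than that of 95.2%. In control lungs the most variable for its group was Nr1d1, with an SD of 0.41, more than that of 95.2% of genes. There 1 array, control 2 at 9.72, lay apart from the other controls at 8.65 to 8.95. Cry2 in control lungs (0.15) and Per2 in cobalt tumours (0.19) varied less than most genes did there.

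Because the hour of collection is unknown, the arrays were asked whether Arntl ran opposite to Nr1d1, Dbp and Per3, as it does over a day. Within each group of 6, Pearson's r was below 0 in 7 of the 9 relations, but no relation passed the exact two-sided permutation test after adjustment over the 9. In spontaneous tumours r was -0.87 for Per3 (exact permutation p = 0.0264, adjusted 0.237, Spearman's rho -0.66 with p = 0.175), -0.69 for Dbp (p = 0.14, adjusted 0.421, rho -0.43 with p = 0.419) and -0.44 for Nr1d1 (p = 0.376, adjusted 0.635, rho -0.26 with p = 0.658). Without spontaneous tumours 1 and 5, the farthest from the median of Arntl, these were -0.2, -0.21 and -0.03. Leaving them out also narrows the range of Arntl, which can itself weaken r. Whether the relation with Per3 rests on those 2 arrays thus cannot be told. In control lungs r was -0.7 for Dbp (exact permutation p = 0.0986, adjusted 0.421, rho -0.77 with p = 0.103, and r = -0.81 without controls 1 and 6). It was -0.24 for Nr1d1 (exact p = 0.59, adjusted 0.759, rho -0.54 with p = 0.297) and -0.43 for Per3 (exact p = 0.424, adjusted 0.635, rho -0.26 with p = 0.658), and -0.67 and 0.2 without those 2 controls. In cobalt tumours r was -0.44 for Nr1d1 (exact p = 0.365, adjusted 0.635, rho -0.43 with p = 0.419), 0.09 for Dbp (exact p = 0.914, adjusted 0.914, rho -0.03 with p = 1) and 0.08 for Per3 (exact p = 0.871, adjusted 0.914, rho -0.2 with p = 0.714). Without cobalt tumours 2 and 5 the 3 values were -0.24, 0.26 and 0.57.

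**Figure D4:**
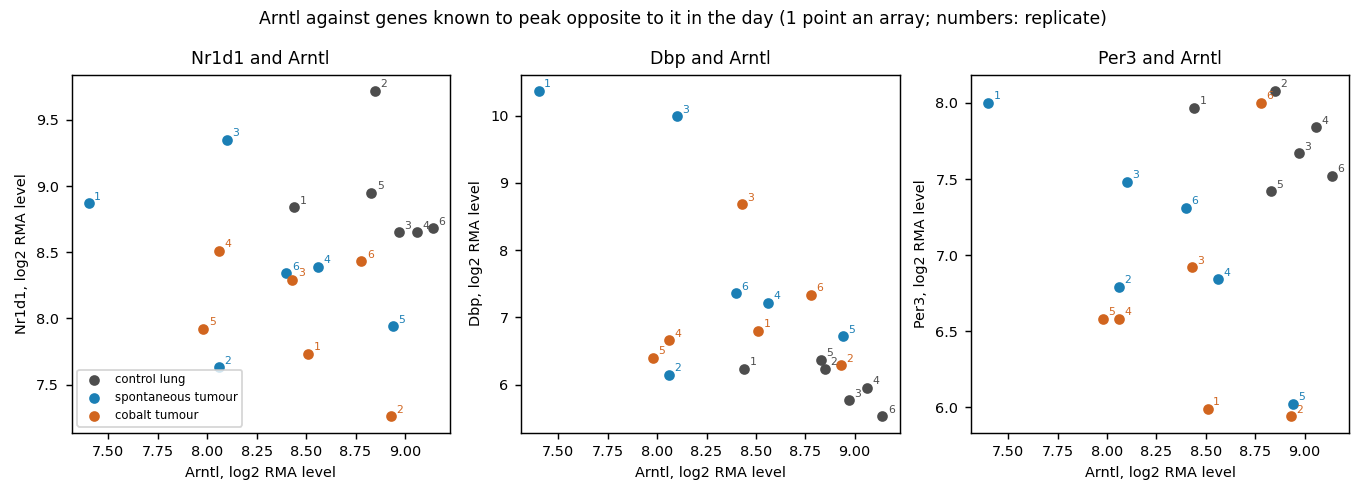
Each array's log2 RMA level of Nr1d1, Dbp and Per3 (vertical axes) against that of Arntl (horizontal axes), coloured by group, with replicate numbers. Spontaneous tumour 1, at the far left with the lowest Arntl (7.4), has the highest Dbp (10.37), and spontaneous tumour 5, with the highest Arntl of its group (8.94), has the lowest Per3 of its group (6.02).

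Cobalt and spontaneous tumours were compared directly, and none of the 10 genes passed limma's adjusted threshold, which 15 of 18193 genes (0.0824%) passed, 0.044% higher and 0.0385% lower in cobalt tumours. No member's groups were free of overlap, beside 0.616% of all genes (0.192% higher and 0.423% lower). Per1 had the smallest p of the 10. It was 1.83-fold higher in cobalt tumours (0.88 ± 0.24, 95% interval 0.36 to 1.39), with an unadjusted p of 0.00226 in limma and 0.0216 in the exact permutation test, and an adjusted p of 0.184. Cobalt tumours 1 to 5, at 8.41 to 8.77, overlapped spontaneous tumours 1 and 3, at 8.56 and 8.59. Without cobalt tumour 6 the difference was 0.67, the smallest of the 18 fits that left out 1 array (adjusted p = 0.123). Cry1 was 1.5-fold higher (0.59 ± 0.26), with an adjusted p of 0.38 in limma. At an unadjusted p under 0.05 these 2 genes passed in limma and Per1 alone in the exact permutation test. For Dbp the difference was -0.94 ± 0.62 (95% interval -2.26 to 0.37), for Nr1d1 -0.39 ± 0.28 (-0.98 to 0.19), for Per3 -0.4 ± 0.33 (-1.09 to 0.29) and for Arntl 0.2 ± 0.22 (-0.26 to 0.67). The intervals of Clock (-0.26 to 0.47), Per2 (-0.35 to 0.52), Cry2 (-0.29 to 0.6) and Nr1d2 (-0.56 to 0.58) also held 0.

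Around the core loop, the repressors Bhlhe40 and Nfil3 rose in both kinds of tumour and the repressor Ciart and the D-box activators Tef and Hlf fell. Bhlhe40 (DEC1), which competes at E-boxes and is also induced by hypoxia, was at 8.57 to 9.33 in control lungs, 11.12 to 12.3 in spontaneous tumours and 11.09 to 11.83 in cobalt tumours, with no overlap. It rose by 2.57 ± 0.19 and 2.4 ± 0.19 on the log2 scale (limma adjusted p = 4.5e-08 and 9.93e-08). Ciart, a repressor that is itself a strong clock output, was at 7.34 to 7.87 in control lungs and at 6.37 to 6.75 and 6.51 to 6.93 in the tumour groups, and fell by 1 ± 0.09 and 0.78 ± 0.09. Rora, the activator at the RORE, fell by 0.95 ± 0.34 in spontaneous tumours (limma adjusted p = 0.0364). In cobalt tumours it differed by -0.7 ± 0.34 (0.123). Rora was at 9.77 to 10.06 in control lungs, 7.46 to 10.18 in spontaneous tumours and 8.47 to 10.12 in cobalt tumours. Spontaneous tumour 3, at 10.18, was above every control, so the fall was not uniform. For Rora, Nfil3 and all other listed genes, results with Xist as a covariate or with single arrays left out are not given here. Npas2, which can stand in for Clock, differed by 0.17 ± 0.16 and 0.18 ± 0.16 and Bhlhe41 by 0.13 ± 0.13 and -0.14 ± 0.13, and neither passed. Of the 7 measured genes of this list (8 listed), 1 rose and 2 fell in spontaneous tumours and 1 rose and 1 fell in cobalt tumours. Beside them, 34.6% and 34% of all genes were called in these comparisons, and the counts are not read as particular to the clock.

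Dbp was called in spontaneous tumours only, where it rose, while its relatives Tef and Hlf fell there and in cobalt tumours. Tef, another D-box activator, was at 10.36 to 10.89 in control lungs, 8.4 to 10.18 in spontaneous tumours and 8.6 to 10.7 in cobalt tumours, and fell by 1.29 ± 0.33 and 1.36 ± 0.33 (adjusted p = 0.00594 and 0.00403). Within the spontaneous tumours it was again highest in numbers 1 and 3, at 10.18 and 9.86, and among cobalt tumours in number 6, at 10.7. Hlf fell by 0.94 ± 0.15 and 0.85 ± 0.15 to levels of 5.11 to 6.11, below the array medians. Nfil3 (E4BP4), the repressor at the D-box, rose by 0.7 ± 0.26 in spontaneous tumours (adjusted p = 0.0459) and by 1.18 ± 0.26 in cobalt tumours (0.00174), from 6.95 to 8.25 in control lungs to 7.4 to 9.05 and 8.18 to 9.29. All 3 genes of this list thus passed the test in both comparisons, beside 34.6% and 34% of all genes in spontaneous and cobalt tumours.

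Of the enzymes that mark or degrade clock proteins, some rose and some fell, beside 34.6% and 34% of all genes called in the spontaneous and cobalt comparisons. Of 11 measured (13 listed), 3 rose and 2 fell in spontaneous and 3 rose and 3 fell in cobalt tumours, with median log2 changes of 0.12 and 0.08. Csnk1e, a casein kinase that marks PER proteins for breakdown, fell by 0.51 ± 0.13 and 0.48 ± 0.13 (adjusted p = 0.00448 and 0.00738), while its close relative Csnk1d differed by 0.06 ± 0.08 and 0.08 ± 0.08 and did not pass. Csnk2a1, a catalytic subunit of casein kinase 2, rose by 0.73 ± 0.17 and 0.75 ± 0.17, Gsk3b by 0.49 ± 0.16 and 0.65 ± 0.16 and the ubiquitin ligase subunit Fbxw11 by 0.26 ± 0.08 and 0.21 ± 0.08. Timeless, a replication fork protein that has been tied to the clock, fell by 0.75 ± 0.17 and 0.82 ± 0.17. Prkaa2, a catalytic subunit of AMP-activated kinase, which marks CRY1, fell by 1.95 ± 0.51 in cobalt tumours (adjusted p = 0.00611) and differed by -1.04 ± 0.51 in spontaneous tumours (0.125).

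**Figure D5:**
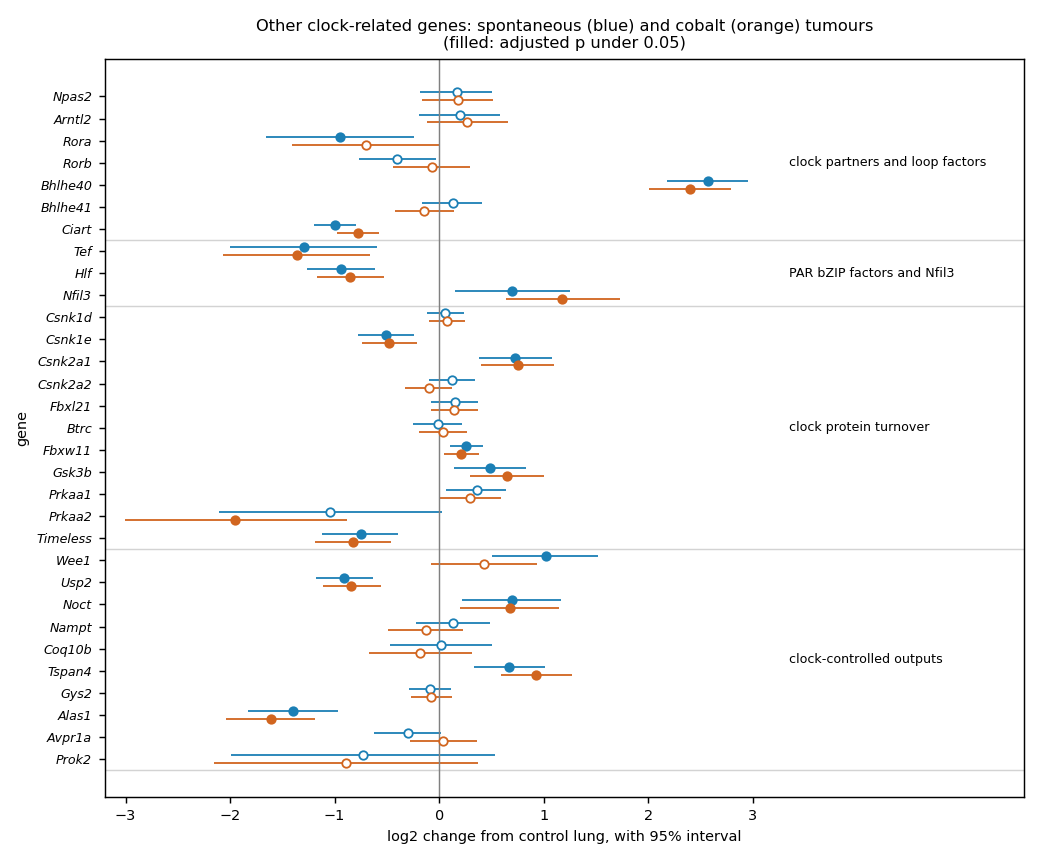
The log2 change from control lung, with its 95% interval from limma, of the other clock-related genes (rows, grouped by list) in spontaneous (blue) and cobalt (orange) tumours; filled points passed an adjusted p of 0.05. Bhlhe40 lies farthest to the right, at 2.57 and 2.4, and Tef, Hlf, Ciart, Csnk1e, Timeless, Usp2 and Alas1 are filled and left of 0 in both.

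Among genes known as outputs of the clock some rose and some fell, and their counts are read beside the same 34.6% and 34% of all genes. Of 10 measured (12 listed), 3 rose and 2 fell in spontaneous and 2 rose and 2 fell in cobalt tumours, with medians of -0.03 and -0.1. Alas1, the first enzyme of haem synthesis, fell by 1.4 ± 0.2 and 1.61 ± 0.2 with no overlap, and the deubiquitinase Usp2 fell by 0.91 ± 0.13 and 0.84 ± 0.13. The deadenylase-related gene Noct (nocturnin) rose by 0.7 ± 0.23 and 0.68 ± 0.23 and the tetraspanin Tspan4 by 0.67 ± 0.16 and 0.93 ± 0.16. Wee1, the kinase that holds back entry into mitosis, rose by 1.02 ± 0.24 in spontaneous tumours (adjusted p = 0.00315) and differed by 0.43 ± 0.24 in cobalt tumours (0.186). Beside it, all 9 measured markers of cycling cells (10 listed) rose in spontaneous tumours and 1 rose in cobalt tumours. Their mean level was 5.94 to 6.4 in control lungs, 7.11 to 8.88 in spontaneous tumours and 5.56 to 7.84 in cobalt tumours. Its part in the Wee1 result was not tested.

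Glucocorticoids set the phase of clocks outside the brain and induce Per1, so genes known to be induced by them were examined. Of 12, 6 fell and 1 rose in spontaneous tumours and 7 fell and 2 rose in cobalt tumours, with median log2 changes of -1.45 and -1.39. Over all genes 18.2% fell and 16.4% rose in spontaneous and 19.3% fell and 14.7% rose in cobalt tumours. Zbtb16 had the largest change, with log2 changes of -3.72 ± 0.45 and -3.99 ± 0.45, followed by Pdk4, a brake on pyruvate oxidation (by 2.96 ± 0.55 and 2.35 ± 0.55), and Klf15 (by 2.05 ± 0.46 and 1.98 ± 0.46). Tsc22d3 (GILZ) fell by 1.79 ± 0.27 and 1.42 ± 0.27. Ddit4 rose by 1.33 ± 0.25 and 1.21 ± 0.25, and the EGF receptor inhibitor Errfi1 rose by 0.99 ± 0.19 in cobalt tumours. Many of these genes are also expressed in the normal lung cells whose markers fell, and that part was not tested.

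The genes most like Arntl, Nr1d1 and Dbp were found by Pearson's r over the 18 arrays after each group's mean was taken off, among 12119 genes brighter than the 6064 dimmest and outside the 10. The 4 genes closest to Dbp were Eci2 (r = 0.879), an enzyme of fatty acid oxidation, Tmem86a (0.855), the myosin Myo9a (0.846) and Tspyl4 (0.837). Tspyl4 was at 10.83 and 10.55 in spontaneous tumours 1 and 3 and at 6.91 to 9.29 in the other 4, and among cobalt tumours was highest in number 3, at 9.35. The closest to Nr1d1 were Trak1 (0.845), Zfp653 (0.817), the lipase Liph (0.802) and Abhd11 (0.783), and to Arntl Bphl (0.81), the epoxide hydrolase Ephx1 (0.767), the splicing factor Rbfox2 (0.764) and Nt5dc2 (0.76). By the same measure Dbp had an r of 0.897 with Nr1d2, 0.81 with Per2, 0.771 with Cry2, 0.731 with Nr1d1, 0.687 with Per1 and 0.631 with Per3. Between 0.01% (Nr1d2) and 1.59% (Per3) of all genes exceeded these values. With Clock the r of Dbp was 0.181, which 26.04% of all genes exceeded. With Arntl and Cry1 it was -0.479 and -0.457, which 93.54% and 92.28% exceeded. Arntl had an r of 0.739 with Cry1, which 0.05% of all genes exceeded, and of -0.545 with Nr1d2. These values describe 18 arrays that share groups and processing, are weighted by the few arrays that stand far out, and carry no p.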

How the data were processed

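RNA of 18 samples was measured on an Affymetrix mouse array, 1 array a sample. The values deposited by the authors are log2 expression levels from RMA, according to the submitters' processing notes, with no version or settings stated there. RMA in its usual form makes the arrays' distributions alike, which can hide a shift of all genes, and can understate changes of dim probe sets. Detection calls were not used here, so whether a dim probe set was detected is unknown. Values ran from 3.34 to 15.26 and the number of arrays limits the precision. Of 45101 probe sets, 64 were controls, 34945 had 1 symbol in the platform annotation, 932 several and 9160 none. Only those with 1 symbol were used, and 34741 matched RefSeq genes (GRCm38.p6) by Entrez identifier with 0 symbols changed.

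Groups were compared with limma 3.58.1 in R 4.3.3 (lmFit, then eBayes, 1 fit over 18 arrays, two-sided, Benjamini-Hochberg over 18193 genes, threshold 0.05). The tests were tested on simulated data. The members and lists were chosen with earlier results of these data known. Named genes were the 10 members, 12 further clock genes (2 of them not reported here), up to 4 genes each way per list and the 4 genes most like Arntl, Nr1d1 and Dbp; not all eligible list genes are printed. Correlations within groups used all 720 orders of 6 arrays. Alternatives were cyclic loess, the 6064 dimmest genes left out, the mean of or all probe sets, trend and robust options, array weights, the 12 arrays compared, the replicate block, Xist as a covariate or high-Xist arrays alone, cobalt tumour 6 and spontaneous tumours 2 and 6 left out together, each array left out, and an exact permutation test. Replicate numbers are counts in the labels and pair nothing known: the correlations of same-numbered arrays ran from -0.38 to 0.24.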

Additional observations from a re-analysis of the deposited data

Results flagged for a closer look

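In 30 pairs of gene and group, 2 single arrays lay far from the rest of their group by Dixon's criterion, which chance alone meets in about 1 of 20 groups. Per1 was at 9.85 in cobalt tumour 6, with the next cobalt tumour at 8.77, and the gap was 0.75 of the group's range against a critical value of 0.625. This Per1 level was also above every control lung (8.39 to 9.04). Cobalt tumour 6 held the highest endothelial marker level of its group, 10.3 against 7.6 to 8.86 in the other cobalt tumours. A link between these values was not tested. Nr1d1 was at 9.72 in control 2, with the next control at 8.95, and the gap was 0.717 of the range.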

How the results depend on the processing

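Of 900 values of a clock gene under another setting, 818 kept direction and side of the threshold, 37 lost a call, 15 gained one and 30, none of them called, changed sign. Clock in cobalt tumours kept its call throughout. The count of 5 members called in spontaneous tumours was 3 with the mean of all probe sets, 0 with Xist as a covariate, 2 with high-Xist arrays alone (Per1 and Per2), 3 by the exact permutation test and 3 to 5 with 1 array left out. That of 3 in cobalt tumours was 5 with only the 12 arrays compared, 5 by permutation and 2 to 3 with 1 array left out. Between tumour groups no member was called under any setting. The count of 15 genes there was 26 without the dimmest genes, 24 with array weights, 1 with 12 arrays, 29 with Xist as a covariate, 0 with high-Xist arrays, 354 without cobalt tumour 6 and spontaneous tumours 2 and 6, 0 by permutation and 1 to 82 with 1 array left out (82 without cobalt tumour 6).

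Replicate numbers shared by the groups do not pair the arrays. With the replicate block 4 members were called in spontaneous tumours (Cry2 was lost, adjusted p = 0.0502), 3 in cobalt tumours and 0 between tumours, where the count of all genes was 1.

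Signs changed as follows. Against control lung in cobalt tumours, Per1 was 0 with array weights, -0.15 without those 3 arrays and -0.15 to 0.14 with 1 array left out, and Cry1 -0.06, -0.11 and -0.14 to 0.14. Between tumour groups with array weights, Clock was -0.02, Per2 -0.14, Cry2 -0.1 and Nr1d2 -0.28, and without those 3 arrays -0.03, -0.25, -0.18 and -0.31. Clock was -0.04 with Xist as a covariate and -0.04 with high-Xist arrays, and Nr1d2 -0.01 with the covariate and -0.12 with the mean of its probe sets. With 1 array left out, Clock ran from -0.03 to 0.18, Per2 from -0.04 to 0.24 and Nr1d2 from -0.15 to 0.18. In control lungs Arntl and Per3 had r = 0.20 without the 2 farthest arrays. The cause of these changes was not tested. The RORE word of Arntl lies after the start, so 0 members had it in the 250 bases before.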

Other observations

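Controls 5 and 6 were the most alike pair of control arrays, with an SD of the log2 difference over genes of 0.181 against 0.281 to 0.505 for the other pairs. Their clock genes were not identical, with Arntl at 8.83 and 9.14 and Dbp at 6.37 and 5.53.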
